A study of Homo sapiens with 18 samples.

Results

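The genes described here are Janus kinases (JAKs) and signal transducers and activators of transcription (STATs). They were chosen by name, as the transcript clusters whose gene symbol in the platform's table was *JAK1*, *JAK2*, *JAK3*, *TYK2*, *STAT2*, *STAT3*, *STAT4* or *STAT6*. A transcript cluster is the array's unit for a gene or part of one. Of these 8 symbols, 6 had a transcript cluster with that symbol, 1 each, among the 53617 transcript clusters of the table. *STAT2* and *STAT6* were not analysed here. The set was built around *JAK2*, which had one of the largest decreases on the HCC1806 arrays labelled GapmeR. All HCC1806 differences between GapmeR and control are therefore given as a description with no test, and the tests come from HCC1395 and from comparisons that the choice did not use.

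HCC1806 and HCC1395 are established triple-negative breast cancer (TNBC) cell lines. Cells of each line received *PART1* GapmeR 1, *PART1* GapmeR 2 or a negative control GapmeR, and RNA was collected after 48 h. GapmeRs are antisense oligonucleotides that direct RNase H to the RNA they bind, here the long non-coding RNA *PART1*. The GapmeRs against *PART1* share most of their sequence, so a change seen with both is not a fully independent check. There were 3 Affymetrix Human Gene 2.0 ST arrays for each of the 6 groups (HCC1806 GapmeR 1, GapmeR 2 and control, and HCC1395 GapmeR 1, GapmeR 2 and control), 18 arrays in all. Every group, controls included, was thus transfected with an oligonucleotide. Replicates carry a number in the labels, with no word on whether each was a culture of its own. The p-values below therefore rest on array-to-array spread that may be technical.

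Values are log2 signals, so a difference of 1 is a doubling of the signal. Array medians lay between 4.04 and 4.13, and a transcript cluster near or under them is dim. *PART1* itself was lower with the GapmeRs in HCC1395 (log2 fold change with both −0.63, SE 0.17) but not in HCC1806 (0.19, SE 0.16), where its signal was dim. Directions in HCC1806 are therefore given for arrays by their label. Of 8 markers of breast epithelial cells, 6 were measured, of which 6 in HCC1806 and 5 in HCC1395 were over the array median on all 9 arrays of the line. Among the receptors whose low level defines TNBC, *PGR* was under the median on all arrays and *ERBB2* was not analysed here. *ESR1* was under the median in HCC1395 but at 4.74 to 5.04 in HCC1806, over the median. The endothelial markers *PECAM1* and *VWF* were under the median on all arrays of both lines. Of 6 blood cell markers 3 were measured. *CD68*, a lysosomal gene of macrophages, was over the median on all arrays (9.24 to 10.13 in HCC1806 and 5.48 to 6.03 in HCC1395), *CD14* on 1 of 9 arrays of each line and *LYZ* on none. Of 4 fibroblast markers *DCN* was measured, which was over the median on 8 of 9 HCC1395 arrays and on none of HCC1806. The part of these other cell type markers in the results was not tested.

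JAKs are tyrosine kinases bound to the inner part of cytokine receptors. When a cytokine brings receptor chains together, the JAKs phosphorylate each other, the receptor and the STATs that dock there, and the phosphorylated STATs pair, enter the nucleus and bind DNA. Signalling by interleukin 6 and related cytokines through JAK1, JAK2, TYK2 and STAT3 is well known in breast cancer, while JAK3 and STAT4 are best known from lymphoid cells. The arrays measure RNA and not phosphorylation, and in such bulk samples fewer cells with a transcript and less of it per cell cannot be told apart.

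*JAK2* (transcript cluster 17083319, chromosome 9), the kinase of the receptors for erythropoietin, growth hormone, prolactin and interferon gamma, had log2 signals of 2.68, 4.33 and 4.49 on the HCC1806 arrays labelled GapmeR 1, of 4.60, 3.52 and 4.17 on those labelled GapmeR 2, and of 4.67, 5.02 and 4.84 on the control arrays. All 6 GapmeR arrays lay under all 3 control arrays, although the highest of them was close to the lowest control array. The log2 fold change was −1.01 (SE 0.44) for GapmeR 1, −0.75 (SE 0.44) for GapmeR 2 and −0.88 (SE 0.38) for both, a 1.84-fold lower signal. By size it ranked 151st from the lowest of the 53617 transcript clusters and 10th of the 16098 with a gene symbol. These are the values that chose the gene. In HCC1806, 1.36% of all transcript clusters had all GapmeR arrays under all control arrays, and 0.660% were lower by over 1.6-fold with both GapmeRs. Such shares were counted only for all 6 GapmeR arrays against all 3 control arrays. Counts of arrays short of that, given below, have no share beside them and add no support.

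The size of the *JAK2* difference in HCC1806 rested on few arrays. GapmeR 1 replicate 1 was the lowest of the 9 arrays by a wide margin, and GapmeR 2 replicate 2 was next. Without GapmeR 1 replicate 1, the log2 fold change was −0.43 for GapmeR 1 and −0.59 for both, and without GapmeR 2 replicate 2 it was −0.46 for GapmeR 2. The residual SD of *JAK2* over the HCC1806 arrays was 0.666, larger than that of 97.9% of transcript clusters, whose median was 0.217. In HCC1395 the residual SD of *JAK2* was 0.117, against a median of 0.201. The spread lay with the arrays labelled GapmeR, where the SD of *JAK2* was 1.00 for GapmeR 1 and 0.548 for GapmeR 2, against 0.176 for control (n = 3 each). Both low arrays were under the array median. GapmeR 1 replicate 1 was the lowest of the 9 HCC1806 arrays in 14.3% of transcript clusters and GapmeR 2 replicate 2 in 11.5%, where the other 7 arrays were lowest in 9.65% to 11.97%. The part of this in the *JAK2* values was not tested.

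**Figure D1:**
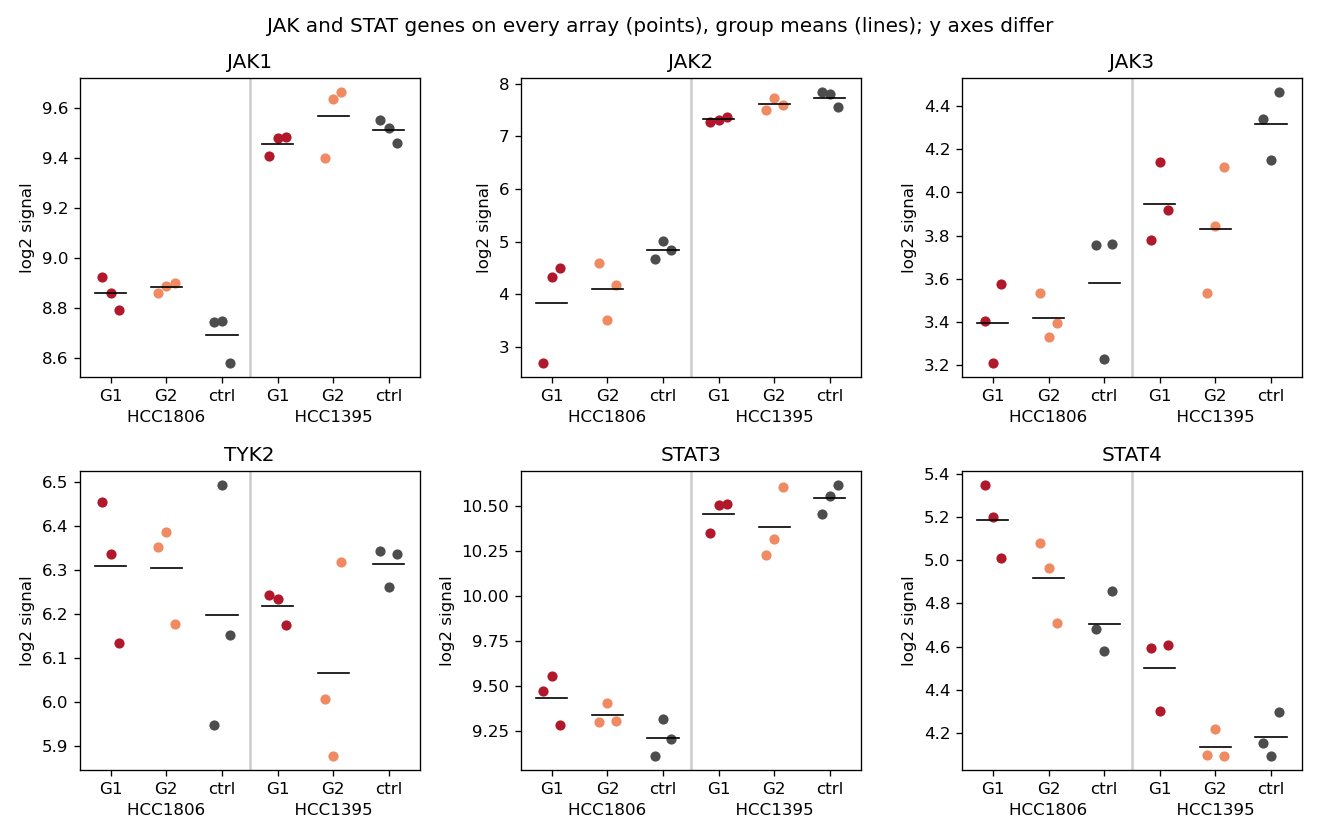
Log2 signal of the 6 JAK and STAT genes on each array (points) with group means (lines), for GapmeR 1 (G1), GapmeR 2 (G2) and control (ctrl) in HCC1806 and HCC1395, with a different y axis in each panel. *JAK2* spreads from 2.68 to 4.60 on the HCC1806 arrays labelled GapmeR and lies over 7 on every HCC1395 array.

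In HCC1395, which the choice did not use, *JAK2* had log2 signals of 7.28, 7.32 and 7.38 with GapmeR 1, of 7.50, 7.74 and 7.61 with GapmeR 2, and of 7.85, 7.80 and 7.56 in the control. The GapmeR 1 arrays lay under all control arrays, while the GapmeR 2 arrays overlapped them. The share of all transcript clusters with such a separation for a single GapmeR was not counted. The log2 fold change was −0.41 for GapmeR 1 (SE 0.12, unadjusted p = 0.0067, adjusted p = 0.844, limma, Benjamini-Hochberg adjusted over the 53617 transcript clusters), −0.12 for GapmeR 2 (SE 0.12, adjusted p = 0.859) and −0.26 for both (SE 0.10, unadjusted p = 0.0291, adjusted p = 0.738). With both GapmeRs, 5 of 6 arrays were under the control mean. The difference did not pass the adjusted threshold. With 1 array left out in turn, it ranged from −0.35 without control replicate 3 to −0.21 without control replicate 1. Under the all-array fit, in which HCC1806 adds its larger spread, its unadjusted p was 0.396.

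The HCC1806 decrease of *JAK2* with both GapmeRs minus that in HCC1395 was −0.61 (SE 0.43, 95% interval −1.52 to 0.29), a description since it contains the values that chose the gene. Its SE takes the spread of the lines as equal, though the residual SD of *JAK2* was 0.666 in HCC1806 and 0.117 in HCC1395. Without HCC1806 GapmeR 1 replicate 1 this difference was −0.33.

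**Figure D2:**
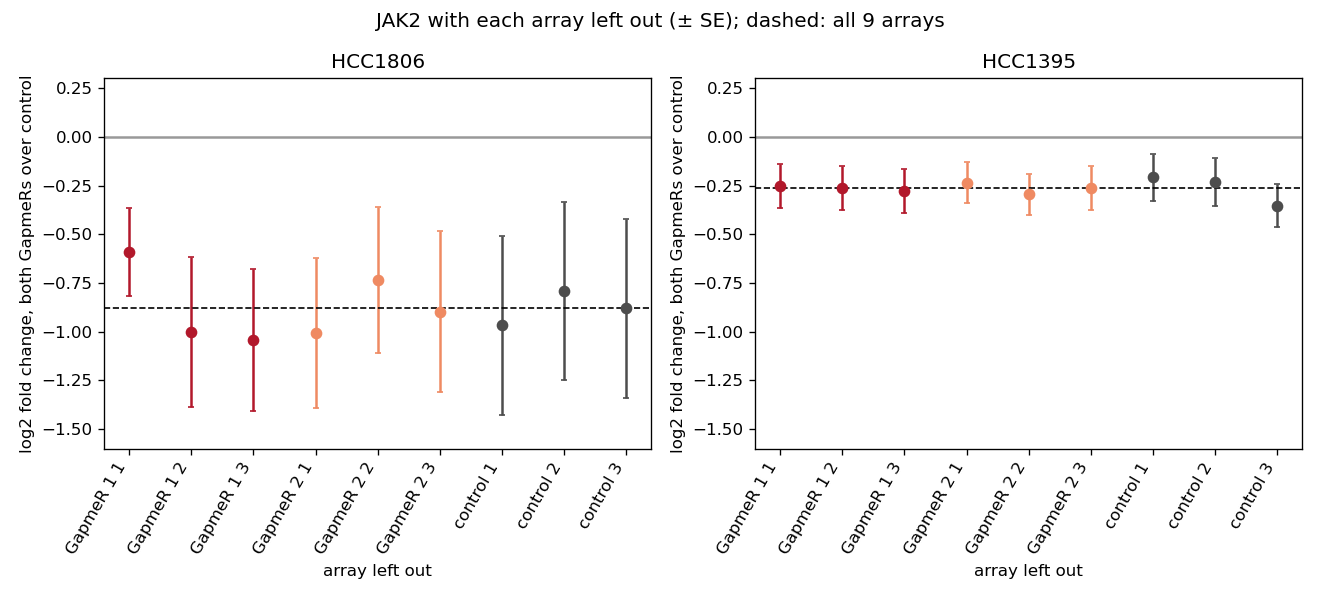
Log2 fold change of *JAK2* with both GapmeRs over control (points, ± SE) when the array named on the x axis was left out, in HCC1806 and HCC1395, with the value over all 9 arrays of the line as a dashed line. In HCC1806 the value lies between −1.04 and −0.59 and in HCC1395 between −0.35 and −0.21.

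*JAK1* (transcript cluster 16688164, chromosome 1), which pairs with JAK2, JAK3 or TYK2 at most cytokine receptors, had log2 signals of 8.92, 8.86 and 8.79 on the HCC1806 arrays labelled GapmeR 1, of 8.86, 8.89 and 8.90 on those labelled GapmeR 2, and of 8.75, 8.75 and 8.58 on the control arrays. All 6 GapmeR arrays were over all 3 control arrays, by a log2 fold change of 0.18 (SE 0.10) with both GapmeRs, where 1.26% of transcript clusters showed this separation upward. *JAK1* and *JAK2* were thus on opposite sides of the control in HCC1806. In HCC1395, *JAK1* had log2 signals of 9.41, 9.48 and 9.48 with GapmeR 1, of 9.40, 9.64 and 9.66 with GapmeR 2, and of 9.55, 9.52 and 9.46 in the control. The groups overlapped there, and the log2 fold change with both was 0.00 (SE 0.09, 95% interval −0.21 to 0.21, adjusted p = 0.999, limma).

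*JAK3* (transcript cluster 16870274, chromosome 19), the kinase of the common gamma chain of interleukin receptors, was dim in both lines, under the array median on the HCC1806 arrays. In HCC1395 its log2 signals were 3.78, 4.14 and 3.92 with GapmeR 1, 3.53, 3.84 and 4.12 with GapmeR 2, and 4.34, 4.15 and 4.46 in the control. All 6 GapmeR arrays were under all 3 control arrays, as for 1.52% of transcript clusters, though the highest GapmeR array was almost level with the lowest control array. The log2 fold change was −0.37 for GapmeR 1 (SE 0.17), −0.49 for GapmeR 2 (SE 0.17, unadjusted p = 0.0178) and −0.43 for both (SE 0.15, unadjusted p = 0.0162, adjusted p = 0.735, limma), again not past the adjusted threshold. In HCC1806 it had log2 signals of 3.41, 3.21 and 3.58 with GapmeR 1, of 3.53, 3.33 and 3.40 with GapmeR 2, and of 3.75, 3.23 and 3.76 in the control. There 6 of 6 GapmeR arrays were under the control mean, but only 1 was under all control arrays, and the log2 fold change was −0.17 (SE 0.15).

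*TYK2* (transcript cluster 16868689, chromosome 19), the kinase of the receptors for type I interferons and for interleukins 12 and 23, had overlapping groups in HCC1806, with log2 signals of 6.45, 6.34 and 6.14 for GapmeR 1, 6.35, 6.39 and 6.18 for GapmeR 2, and 5.95, 6.49 and 6.15 for control. The log2 fold change with both GapmeRs was 0.11 (SE 0.14), and −0.02 without control replicate 1. In HCC1395 the signals were 6.24, 6.23 and 6.18 with GapmeR 1, 6.01, 5.88 and 6.32 with GapmeR 2, and 6.34, 6.26 and 6.34 in the control. There 5 of 6 GapmeR arrays were under all control arrays, a separation not counted over all transcript clusters. The log2 fold change was −0.17 (SE 0.11, unadjusted p = 0.151, adjusted p = 0.805, limma).

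*STAT3* (transcript cluster 16845126, chromosome 17), which carries signals of the interleukin 6 family, had log2 signals of 9.47, 9.55 and 9.28 on the HCC1806 arrays labelled GapmeR 1, of 9.30, 9.41 and 9.31 on those labelled GapmeR 2, and of 9.11, 9.32 and 9.21 on the control arrays. All 6 GapmeR arrays were over the control mean and 3 were over all control arrays, with a log2 fold change of 0.17 (SE 0.11). In HCC1395 it had 10.35, 10.50 and 10.51 with GapmeR 1, 10.22, 10.31 and 10.61 with GapmeR 2, and 10.45, 10.56 and 10.61 in the control. There 5 of 6 GapmeR arrays were under the control mean, and the log2 fold change was −0.12 (SE 0.11, adjusted p = 0.851, limma).

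*STAT4* (transcript cluster 16906571, chromosome 2), which carries interleukin 12 signals in lymphocytes, had log2 signals of 5.35, 5.20 and 5.01 on the HCC1806 arrays labelled GapmeR 1, of 5.08, 4.96 and 4.71 on those labelled GapmeR 2, and of 4.68, 4.58 and 4.86 on the control arrays. All 6 GapmeR arrays were over the control mean and 5 were over all control arrays, a separation not counted over all transcript clusters. The log2 fold changes were 0.48 (SE 0.15) for GapmeR 1 and 0.21 (SE 0.15) for GapmeR 2. In HCC1395, where it was close to the array median, it had log2 signals of 4.59, 4.30 and 4.61 with GapmeR 1, of 4.10, 4.22 and 4.09 with GapmeR 2, and of 4.16, 4.09 and 4.30 in the control. The GapmeR 1 arrays were over all control arrays, a separation not counted over all transcript clusters. Their log2 fold change was 0.32 (SE 0.12, unadjusted p = 0.0266, adjusted p = 0.895, limma). The GapmeR 2 arrays were mixed with the control arrays (−0.04, SE 0.12, adjusted p = 0.952).

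**Figure D3:**
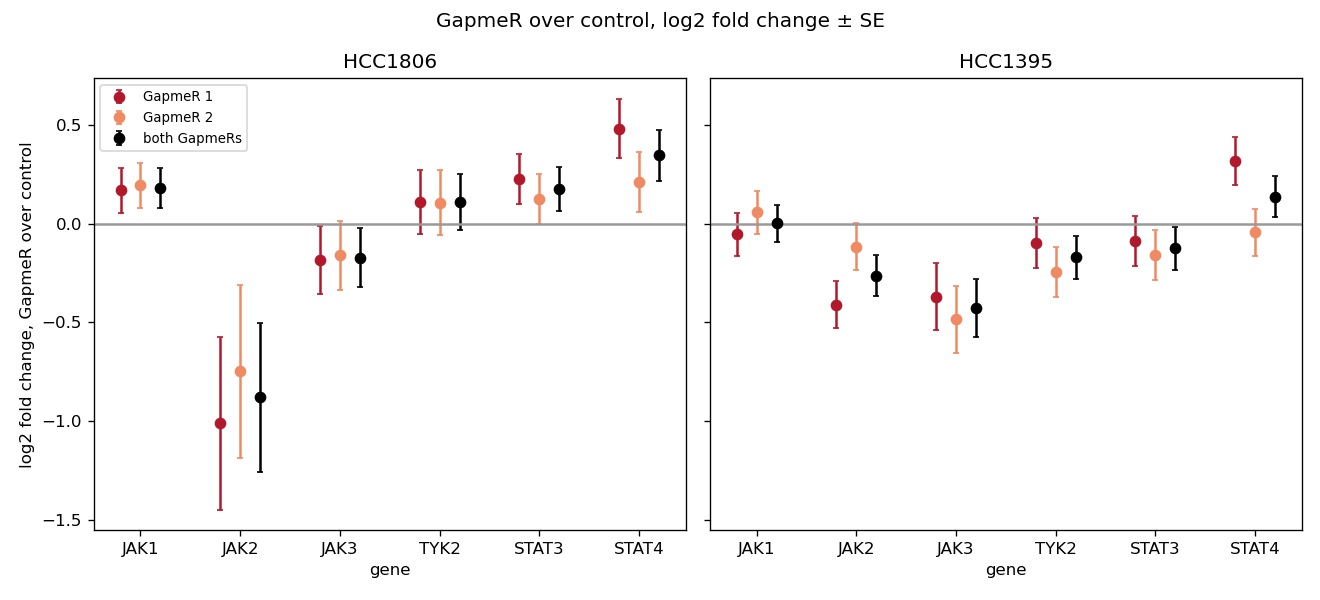
Log2 fold change of each JAK and STAT gene over control (points, ± SE) for GapmeR 1, GapmeR 2 and the mean of both, in HCC1806 and HCC1395. *JAK2* is at −0.88 in HCC1806 and −0.26 in HCC1395 with both GapmeRs, and with both the other 5 genes lie between −0.43 and 0.35 over the lines.

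As a set, the median log2 fold change with both GapmeRs was 0.14 in HCC1806 and −0.15 in HCC1395, beside 0.01 and 0.00 over all transcript clusters. In HCC1395, 2 of the 6 genes, *JAK2* and *JAK3*, were lower at an unadjusted p under 0.05, and none was higher. Over all transcript clusters, 6.55% were at that threshold, 3.10% lower and 3.45% higher. None of the 6 genes, and 0 of the 53617 transcript clusters, passed an adjusted p under 0.05 in HCC1395 by limma, where 3514 had an unadjusted p under 0.05. The unmoderated form of the test also gave 0. With GapmeR 1 alone, 2 of the 6 genes were at an unadjusted p under 0.05, *JAK2* lower and *STAT4* higher, beside 5.39% of transcript clusters, and with GapmeR 2 alone 1 was, *JAK3*, beside 6.73%. The count of 2 fell to 1 without any one of control replicates 1, 2 and 3, GapmeR 1 replicate 1 and GapmeR 2 replicate 1. It was 3 without GapmeR 2 replicate 3, when *TYK2* had an unadjusted p of 0.0321.

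GapmeR 1 and GapmeR 2 were compared directly, with the spread estimated over all 9 arrays of the line, control arrays included. In HCC1395, *JAK2* was lower with GapmeR 1 than with GapmeR 2 by a log2 difference of −0.29 (SE 0.12, unadjusted p = 0.0340), and *STAT4* was higher by 0.36 (SE 0.12, unadjusted p = 0.0143). On every array, *STAT4* was higher and *JAK2* lower with GapmeR 1 than with GapmeR 2. How many of all transcript clusters were separated in this way was not counted, so the separation adds no support. Neither passed the adjusted threshold (adjusted p = 0.9995 for each, limma), in a comparison where 4.65% of transcript clusters had an unadjusted p under 0.05. This count of 2 genes fell to 1 without any one of GapmeR 1 replicates 1, 2 and 3 and GapmeR 2 replicate 2. In HCC1806 none of the other 5 genes reached an unadjusted p under 0.05, beside 5.90% of transcript clusters, and *STAT4* was at 0.27 (SE 0.15, 95% interval −0.07 to 0.61). *JAK2*, which was chosen on these arrays, is given there with no test and was at −0.26 (SE 0.44), or 0.31 without GapmeR 1 replicate 1.

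For *JAK2*, *STAT3* and *JAK1*, the control arrays of the lines differed much more than GapmeR and control arrays within a line. *TYK2* and *STAT4* did not show this. *JAK2* was 7.41-fold lower in HCC1806 than in HCC1395 (log2 difference −2.89, SE 0.35, a description), with a mean log2 signal of 4.84 ± 0.18 in HCC1806 and 7.73 ± 0.16 in HCC1395 (SD, n = 3 each). Of the other 5 genes, 4 differed at an adjusted p under 0.05, 3 lower and 1 higher in HCC1806, where 29.3% of all transcript clusters did, 14.9% lower and 14.4% higher. Without the dimmest 40% of transcript clusters, 15038 of 32170 did. *STAT3* was lower in HCC1806 by a log2 difference of −1.33 (SE 0.12, adjusted p = 1.6e-07, limma), *JAK1* by −0.82 (SE 0.10, adjusted p = 5.2e-06) and *JAK3* by −0.74 (SE 0.17, adjusted p = 0.0033). *STAT4* was higher in HCC1806 by 0.52 (SE 0.13, adjusted p = 0.0054). *TYK2* differed by −0.12 (SE 0.14, 95% interval −0.42 to 0.19, adjusted p = 0.643). Cell line and any batch of the line cannot be told apart.

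**Figure D4:**
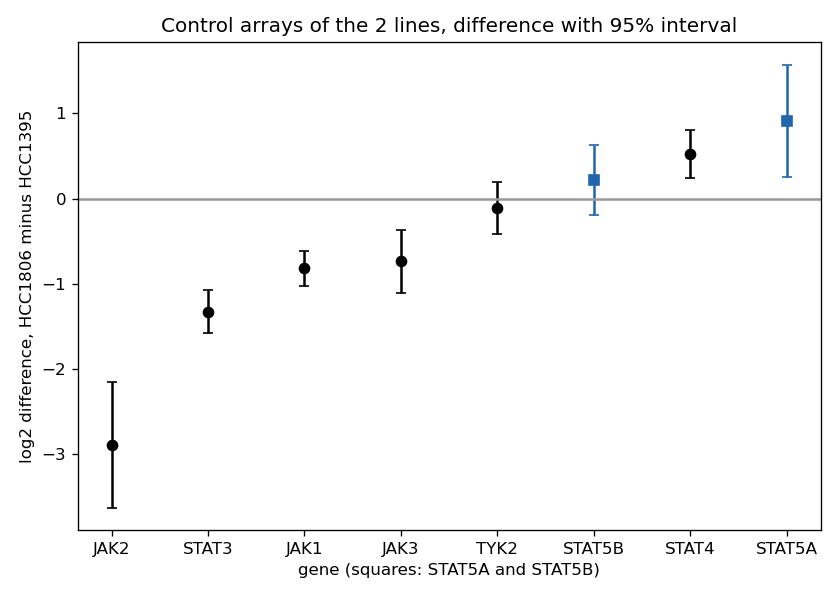
Log2 difference between the control arrays, HCC1806 minus HCC1395, with its 95% interval, for the JAK and STAT genes (circles) and for *STAT5A* and *STAT5B* (squares), ordered by size. *JAK2* has the lowest value, −2.89, and the interval of *TYK2*, from −0.42 to 0.19, includes 0. The intervals use the spread over the GapmeR and control arrays of both lines.

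The protein-coding genes next to *JAK2* on chromosome 9 were set beside it, taking the 3 nearest on each side that the platform's table names. With both GapmeRs in HCC1806 they had log2 fold changes from −0.07 for *AK3* to 0.31 for *RLN2*, so none was lower to the extent of *JAK2*. That *JAK2* was the lowest of them there follows from its choice. Between the control arrays, *CDC37L1* and *RCL1*, on one side of *JAK2*, were lower in HCC1806 by −1.53 (SE 0.12) and −1.50 (SE 0.12), with adjusted p = 3.1e-08 and 2.8e-08 by limma. *AK3*, which lies between them, was at −0.29 (SE 0.14, adjusted p = 0.159), and the neighbours on the other side, *INSL6*, *INSL4* and *RLN2*, were between −0.05 and 0.29 with adjusted p of 0.435 to 0.968. Signal levels of the neighbours are not given here, and a gene that is dim in both lines could show no difference. These values therefore mark no edge of a region at *JAK2*.

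*STAT5A* and *STAT5B*, neighbouring and closely similar genes that carry prolactin and growth hormone signals from JAK2, were measured as further family genes. Whether their probes separate them is not known here. *STAT5A* had log2 signals of 6.47, 5.33 and 5.63 on the HCC1806 arrays labelled GapmeR 1, of 5.81, 5.48 and 5.19 on those labelled GapmeR 2, and of 5.26, 4.52 and 5.16 on the control arrays. All but 1 of the 6 GapmeR arrays were over all control arrays, a separation not counted over all transcript clusters. The log2 fold change was 0.67 (SE 0.26) and the residual SD 0.449. The highest *STAT5A* array was the lowest *JAK2* array, GapmeR 1 replicate 1. In HCC1395 its log2 fold change was 0.02 (SE 0.23, 95% interval −0.51 to 0.55, adjusted p = 0.993, limma). *STAT5B* was at 0.01 (SE 0.17) in HCC1806 and at 0.00 (SE 0.16, adjusted p = 1.00) in HCC1395.

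Within the lines, taking each array's deviation from the mean of its line over all 18 arrays, *TYK2* and *STAT3* went together most closely among the 8 genes (Pearson's r = 0.74). *JAK2* ran against *STAT4* (r = −0.62) and *STAT5A* (r = −0.60), with HCC1806 GapmeR 1 replicate 1 at the end of both relations. By ranks these were weaker, with Spearman's rho of −0.54 and −0.37. *JAK2* went with *STAT5B* (r = 0.43, rho 0.58). These are descriptions over arrays that share their groups. Among 11254 other transcript clusters with a gene symbol and a mean signal over the median, those most like *JAK2* in the same measure were *TCF12* (r = 0.85), *KLF12* (0.83), *NIPAL2* (0.83), *CNTNAP3* (0.82) and *ANKRD26* (0.82). Without HCC1806 GapmeR 1 replicate 1 their r fell to between 0.62 and 0.69. *TCF12* and *KLF12* encode transcription factors, and their log2 fold changes with both GapmeRs were −0.39 (SE 0.15) and −0.47 (SE 0.20) in HCC1806 and −0.07 (SE 0.09) and −0.11 (SE 0.12) in HCC1395. *NIPAL2*, *CNTNAP3* and *ANKRD26* were at −0.15, −0.27 and −0.34 in HCC1806 and at −0.07, 0.08 and 0.01 in HCC1395. Genes picked for following *JAK2* tend to be low where *JAK2* is, so their HCC1806 values are no support for its decrease.

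The rest of the pathway was followed in lists of ligands, receptors, inhibitors, target genes, and STAT partners and cofactors, with the other family genes, 139 genes of which 82 were measured. In HCC1395, 1 was higher and 1 was lower at an unadjusted p under 0.05, 2.44% of those measured against 6.55% of all transcript clusters, and none passed the adjusted threshold. The count of 2 was 5 with the unmoderated form of the test, 5 with the replicate number as a block, and 4 without GapmeR 1 replicate 1 or GapmeR 2 replicate 2. The list medians lay between −0.04 and 0.03 in HCC1395. In HCC1806 those of the 5 functional lists lay between 0.05 and 0.09. With the mean of both GapmeRs there, none of the 82 genes was over 1.6-fold different in either direction, beside 0.660% of all transcript clusters lower and 0.405% higher. *STAT5A* came closest.

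Among ligands, *IL11*, a cytokine of the interleukin 6 family, had log2 signals of 5.01, 4.86 and 4.71 with GapmeR 1, of 4.40, 4.97 and 4.21 with GapmeR 2, and of 5.12, 4.95 and 5.26 in the control in HCC1395 (log2 fold change with both −0.42, SE 0.17, unadjusted p = 0.0329, adjusted p = 0.745, limma). It was at −0.11 (SE 0.15) in HCC1806, where *CTF1* (cardiotrophin 1) was at −0.11 and *EPO* (erythropoietin) at 0.09. *LIF*, another ligand of that family, was at 0.35 (SE 0.16, adjusted p = 0.775) in HCC1395, and *PRL* and *IL2*, both far under the array median, were at −0.23 and −0.19.

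Among receptors, *IL7R*, the interleukin 7 receptor chain that signals with JAK1 and, through the common gamma chain, JAK3, had log2 signals of 5.75, 5.59 and 5.56 with GapmeR 1, of 6.03, 5.85 and 5.47 with GapmeR 2, and of 5.36, 5.35 and 5.18 in the control in HCC1395. All 6 GapmeR arrays were over all control arrays, as for 1.90% of transcript clusters, and the log2 fold change was 0.41 (SE 0.13, unadjusted p = 0.0114, adjusted p = 0.734, limma). In HCC1806 it was at 0.07 (SE 0.28). *IL20RB*, *LIFR* and the dim *IL23R* were at 0.28, 0.17 and −0.25 in HCC1395 with adjusted p of 0.775 to 0.801, and *LEPR* and *IL4R* at −0.10 and 0.07 in HCC1806.

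Of the inhibitors, which include the SOCS proteins of cytokine feedback, *SOCS5*, *SOCS7*, *SOCS3* and *SOCS4* had log2 fold changes of −0.16, 0.17, −0.14 and 0.11 in HCC1395, with adjusted p of 0.802 to 0.842. In HCC1806, *SOCS3* was at 0.22 (SE 0.14), *SOCS2* at 0.14 (SE 0.17) and *CISH*, a target and inhibitor of STAT5, at −0.13 (SE 0.12). Among known STAT targets, *TIMP1*, *A2M* and *JUNB* were at −0.19, −0.43 and −0.18 in HCC1395 and the dim *FGG* at 0.18, with adjusted p of 0.777 to 0.798. In HCC1806 the kinase gene *PIM1* was at 0.36 (SE 0.21), *VEGFA* at 0.26 (SE 0.32) and *ICAM1* at 0.26 (SE 0.27). On replicate 3 of each HCC1806 group *VEGFA* was lower than on replicates 1 and 2, at 6.30 for control, 6.59 for GapmeR 1 and 6.68 for GapmeR 2. The SE of *VEGFA* contains this spread. Of the STAT partners, *SP1*, a transcription factor, was higher on all 6 GapmeR arrays of HCC1395 than on its control arrays, as for 1.90% of transcript clusters. Its log2 fold change was only 0.12 (SE 0.08, adjusted p = 0.818), and *STAM2*, *NMI* and *SHC1* were at 0.13, 0.10 and −0.13 with adjusted p of 0.842 to 0.886. *JUN*, *SH2B1* and *SHC1* were at 0.31, 0.16 and 0.11 in HCC1806.

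**Figure D5:**
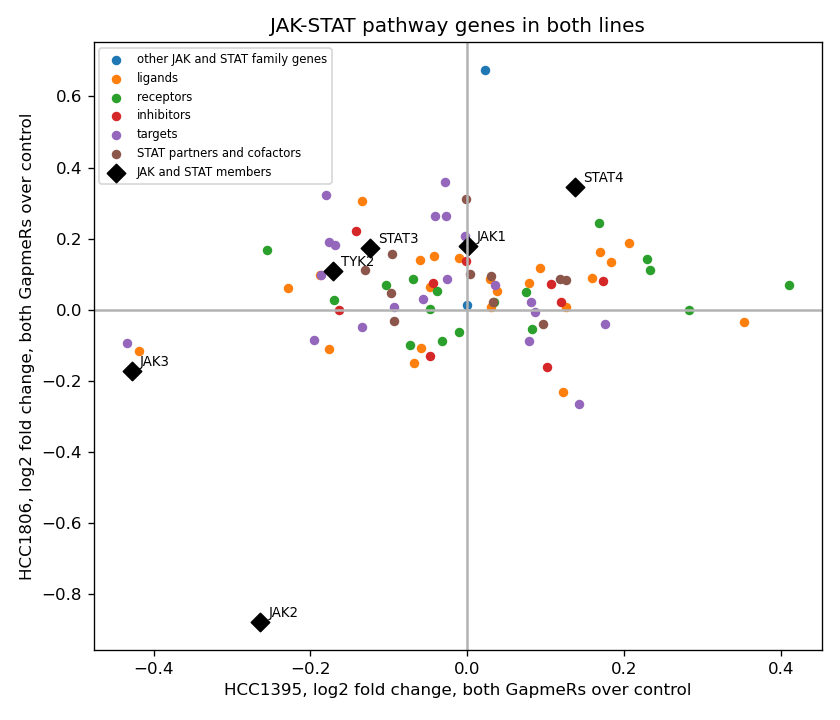
Log2 fold change with both GapmeRs over control in HCC1395 (x axis) and HCC1806 (y axis) for the 6 JAK and STAT genes (diamonds) and the 82 measured genes of the pathway lists (circles, coloured by list). *JAK2*, which was chosen for its decrease in HCC1806, is at −0.88 on the y axis, and *STAT5A* is at 0.67.

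Between the control arrays, 16 of the 82 pathway genes were higher and 23 lower in HCC1806 at an adjusted p under 0.05, beside 14.4% of all transcript clusters higher and 14.9% lower. The share over all is lowered by dim transcript clusters. Without the dimmest 40%, 15038 of 32170 passed in either direction. *IL20RB*, a chain of the receptors for interleukins 19, 20 and 24, was higher in HCC1806 by a log2 difference of 3.91 (SE 0.17), *IL7R* by 3.25 (SE 0.27) and *ICAM1*, an adhesion molecule, by 2.04 (SE 0.28), with adjusted p of 3.4e-11, 7.9e-08 and 2.2e-05 by limma. Lower in HCC1806 were *A2M*, a protease inhibitor, by −5.65 (SE 0.30), *LIFR*, the receptor for leukaemia inhibitory factor, by −2.49 (SE 0.19), and *VEGFA* by −2.26 (SE 0.29), with adjusted p of 3.7e-10, 2.1e-08 and 1.0e-05. The inhibitors *SOCS5* and *SOCS4* were lower in HCC1806 by −1.48 (SE 0.14) and −1.33 (SE 0.15), with adjusted p of 4.7e-07 and 2.5e-06, and *STAT5A* was higher by 0.91 (SE 0.31, adjusted p = 0.0346).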

How the data were processed

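The deposited table holds log2 signals for 53617 transcript clusters and 18 arrays. Per the labels, the authors used RMA and the Affymetrix Expression Console, with no version given. No source used here gives the genome build. No normalization was added. The platform's table gave 1 gene symbol for 16098 transcript clusters, and chromosomes and neighbours came from RefSeq. GapmeR 1, GapmeR 2 and the mean of both were compared with the control arrays of the line, and with each other, by two-sided limma tests (version 3.58.1, R 4.3.3, lmFit with eBayes) fitted on the 9 arrays of a line. The lines were compared in a fit of all 18 arrays. P-values were adjusted over every transcript cluster by the Benjamini-Hochberg method. Precision is limited by how few arrays there are. The script was tested on simulated data.

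The members and lists were chosen with earlier results of these data known. Pathway genes are named if among the 4 smallest p-values of a list in HCC1395, or the 3 largest differences in HCC1806 among genes over the array median on all control arrays. Where a gene had several transcript clusters, the brightest on average was taken. The members, *PART1* and the 5 transcript clusters most like *JAK2* are named as well. The neighbours of *JAK2* were added after values had been seen. Alternatives covered normalization, dim transcript clusters, the variance model, the methods' ANOVA, the arrays fitted, array weights, the replicate number, the call rule and each array left out. Figures were made with Python 3.11.15 and matplotlib 3.10.9.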

Additional observations from a re-analysis of the deposited data

How the results depend on the processing

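Of the 6 JAK and STAT genes, none passed an adjusted p under 0.05 between GapmeR and control arrays in HCC1395, or, *JAK2* in HCC1806 aside, which was not tested, between the GapmeRs in either line, under any alternative tried. The log2 fold change of *JAK2* in HCC1806 lay between −0.88 and −0.83 under the other settings and between −1.04 and −0.59 with an array left out, and its difference between the lines between −0.78 and −0.33. The count of members at an unadjusted p under 0.05 in HCC1395 was 1 with all 18 arrays in one fit and 1 to 3 with an array left out. For the GapmeRs compared directly it was 1 with all 18 arrays in one fit and 1 to 2 with an array left out. The 4 members that differed between the control arrays passed under every setting and with each array left out. The count of pathway genes was 5 with the unmoderated ANOVA, 5 with the replicate block, 0 when a 1.6-fold change was also asked for, and 2 to 4 with an array left out. No other count of calls was marked as moved by the replicate block, where a small change in a count was taken as the same. After group means were removed, same-numbered arrays of different groups correlated at −0.01 to 0.09 in HCC1806 and 0.00 to 0.11 in HCC1395, and differently numbered arrays at −0.09 to 0.02 and −0.10 to 0.08. The main fits did not pair the arrays by number, as 0 of 9 and 1 of 9 same-numbered pairs were over 0.1. That cut was a choice and does not show that the arrays were unpaired. As a hint from the data, 9 of 9 HCC1806 arrays and 7 of 9 HCC1395 arrays correlated best, on average, with arrays of their own number. In HCC1806, 8 of 9 same-numbered pairs were also over the highest differently numbered pair, against 1 of 9 in HCC1395. The main fits do not remove a part shared by arrays of a number, so the SEs in HCC1806 may contain it.

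The turns of sign listed here were of values close to 0 or, for *JAK2* between the GapmeRs in HCC1806, inside a wide spread, and the cause was not tested. *JAK1* with both GapmeRs in HCC1395 was at −0.037 with quantile normalization and −0.023 to 0.043 with an array left out. *TYK2* against control in HCC1806 was, with an array left out, at −0.015 to 0.26 for GapmeR 1, −0.018 to 0.25 for GapmeR 2 and −0.017 to 0.26 for both. For GapmeR 1 minus GapmeR 2 in HCC1806, *JAK1* was at 0.011 with median centring and −0.058 to 0.0084 with an array left out, *JAK2* at −0.59 to 0.31, *JAK3* at 0.013 with quantile normalization, 0.012 with median centring and −0.11 to 0.069, and *TYK2* at −0.049 with quantile normalization, −0.013 with array weights and −0.069 to 0.090. In HCC1395 the same difference was −0.035 to 0.26 for *JAK3* and −0.0071 to 0.18 for *STAT3*. *STAT4* with GapmeR 2 in HCC1395 was at −0.089 to 0.013, and *TYK2* between the control arrays at −0.26 to 0.0095. In HCC1806, *JAK3* on all arrays and *JAK2* on its 2 lowest arrays were under the array median, where signal over background limits what can be measured.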
